A study of Mus musculus with 16 samples.

Results

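The G2/M and mitosis genes described here are 43 genes that a cell needs to enter mitosis, build a spindle, separate its chromosomes and divide. They were taken by name from a list, and all 43 matched 1 gene each among the 50686 gene identifiers of the 16 count files. The rule for choosing them uses no measured value, but the list was made with earlier results of these data known. RNA was sequenced from BCR-ABL1p185+ bone marrow pro-B cell lines of C57BL/6N background: 4 wild-type lines and 4 Cdk8∆/∆ lines, each with DMSO and with 1 µM senexin B, an inhibitor of CDK8 and its paralog CDK19, for 48 h. All 16 libraries therefore carry the BCR-ABL1p185 oncogene, which was brought in by a retrovirus, and each line is an individually derived culture. The study gives the controls as Cdk8 fl/fl and the deletion as Vav-Cre driven, so the gene was lost in the hematopoietic lineage before the lines were made. A replicate number names 1 line, which has a DMSO and a senexin B library. Numbers that agree between the genotypes name different lines.

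A dividing cell makes the mRNAs of mitosis in a wave that begins in S phase, peaks in G2 and mitosis and ends after division. The transcription factors B-MYB and FOXM1, working with the MuvB complex, switch these genes on, and the related DREAM complex keeps them off in resting cells. Their promoters often hold the cell cycle genes homology region (CHR element), which MuvB binds, and CCAAT boxes, which NF-Y binds. Since the mRNAs of these genes rise and fall with the cycle, their level in a bulk culture reflects both how many cells are in G2 and mitosis and how much RNA each of them holds, and these cannot be told apart here.

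The promoters are shown first because the genes share these sites. RefSeq windows of GRCm38.p6, from 250 bases before to 50 after each transcription start, were found for 35 of the 43 genes. The CHR element was searched as TTTGAA or TTCGAA and the CCAAT box as CCAAT, both on either strand, so a CHR element also appears as TTCAAA and a CCAAT box as ATTGG. A CHR element was in the window of 26 of the 35 genes (74.3%), against 5854 of the 27025 genes of the whole table (21.7%). Within 50 bases of the start it was found for 24 genes (68.6%), against 6.12% of all genes. A CCAAT box was in 26 windows (74.3% against 41.1%), and 17 genes (48.6%) had at least 2 in a window against 13.3% of all genes. Both sites stood in a window for 23 genes (65.7%), against 8.61% of all genes. Below are stretches of 125 bases, from 110 before to 14 after the start base, written along the gene with matches in capitals. The first 6 genes, which the later sections return to, have both sites. Ccnb1 has CCAAT boxes but no match to TTTGAA or TTCGAA in its window, and Nusap1 has no match to either site. Other forms of the CHR element were not searched, so a gene without a match may still hold one.
Cdk1, chr10:69352898-69353022, minus strand: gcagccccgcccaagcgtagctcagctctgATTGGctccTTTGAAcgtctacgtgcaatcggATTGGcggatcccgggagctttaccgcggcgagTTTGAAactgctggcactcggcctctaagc
Ccnb2, chr9:70421540-70421664, minus strand: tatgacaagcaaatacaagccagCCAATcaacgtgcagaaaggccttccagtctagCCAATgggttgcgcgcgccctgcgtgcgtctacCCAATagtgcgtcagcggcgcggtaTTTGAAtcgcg
Cdc20, chr4:118437329-118437453, minus strand: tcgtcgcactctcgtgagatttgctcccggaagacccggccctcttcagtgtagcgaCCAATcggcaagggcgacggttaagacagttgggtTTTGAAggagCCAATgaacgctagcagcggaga
Ube2c, chr2:164769819-164769943, plus strand: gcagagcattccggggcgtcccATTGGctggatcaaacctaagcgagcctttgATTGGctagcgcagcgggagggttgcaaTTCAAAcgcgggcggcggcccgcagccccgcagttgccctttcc
Cenpf, chr1:189688072-189688196, minus strand: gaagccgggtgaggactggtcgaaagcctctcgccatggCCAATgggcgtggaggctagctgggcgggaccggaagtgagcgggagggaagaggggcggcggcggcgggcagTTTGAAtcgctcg
Hmmr, chr11:40733423-40733547, minus strand: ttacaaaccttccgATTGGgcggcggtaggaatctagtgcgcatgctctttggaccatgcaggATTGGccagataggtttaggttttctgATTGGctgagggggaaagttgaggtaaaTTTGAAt
Ccnb1, chr13:100786472-100786596, minus strand: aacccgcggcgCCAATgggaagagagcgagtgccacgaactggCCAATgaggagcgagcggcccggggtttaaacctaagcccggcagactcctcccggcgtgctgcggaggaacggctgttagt
Nusap1, chr2:119618188-119618312, plus strand: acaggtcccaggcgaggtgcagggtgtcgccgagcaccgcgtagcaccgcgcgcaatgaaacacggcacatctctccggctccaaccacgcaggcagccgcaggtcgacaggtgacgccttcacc
In the promoters of Cdk1, Ccnb2, Cdc20 and Ube2c the CHR element lies close to the start, downstream of a CCAAT box on 1 or the other strand. A match describes letters in this window and is not a site shown to be bound. No window was used for Ccna2, Cdc25c, Wee1, Foxm1, Aurkb, Incenp, Kif20a and Tpx2.

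**Figure D1:**
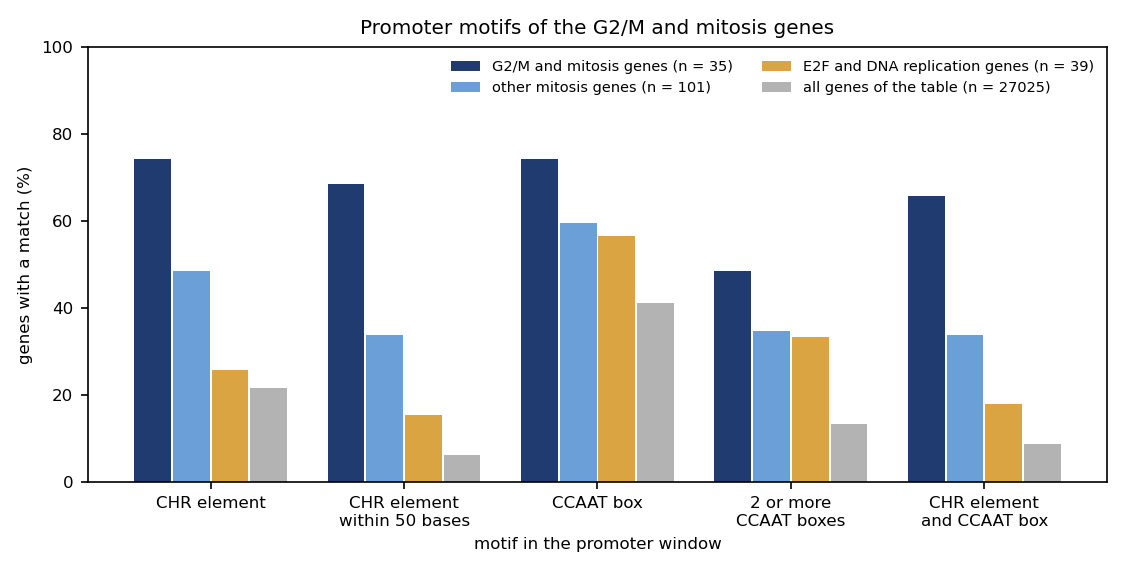
Share of genes (%) with each motif in the RefSeq promoter window, for the 35 matched G2/M and mitosis genes, 101 other mitosis genes, 39 E2F and DNA replication genes and all 27025 genes. The G2/M and mitosis genes have the tallest bar for each of the 5 motif classes, with 74.3% for the CHR element against 21.7% of all genes.

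The 16 libraries held 13145876 to 18349425 counted reads, with a median of 15473664.5, and no pair of them was a copy of another. All 12 pro-B cell markers checked had a mean of 1 CPM (read counts scaled to a common library size) or more in each group, with summed levels of 6297 to 11124 CPM per library. Of the 7 T cell markers, 1 (Lck) had a mean of 1 CPM or more in each group, with summed levels of 17.6 to 133 CPM, and of the 8 myeloid markers 2 had, with summed levels of 7.55 to 33.4 CPM. The T cell genes Cd3e, Cd3d, Cd3g, Cd4, Cd8a and Cd8b1 and the myeloid genes Csf1r, Mpo, Elane, S100a8 and S100a9 stayed under 0.5 CPM in every library, while 1 of the 6 erythroid markers had a mean of 1 CPM or more, with summed levels of 3.81 to 265 CPM, and the summed stroma markers reached 2.20 CPM at most. The part of these genes in the results was not tested. Cdk8 itself was at 68.7, 61.8, 63.3 and 65.8 CPM in the wild-type lines 1 to 4 with DMSO and at 35.3, 52.1, 47.1 and 42.8 CPM in the Cdk8∆/∆ lines, a log2 fold change of -0.55 (SE 0.14, adjusted p = 0.897, edgeR's quasi-likelihood test). The DMSO groups did not overlap and lay in the direction of the labels, and since reads were counted over the whole gene model the deleted part was not seen on its own. With senexin B the wild-type lines had 89.4, 56.3, 56.8 and 55.2 CPM and the Cdk8∆/∆ lines 43.9, 61.7, 42.9 and 41.2 CPM, and the groups overlapped.

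All 43 genes were well measured, with 275 to 40004 reads per gene and library. Per kilobase of exon model their mean level over the 16 libraries ran from 4.80 to 244.5 CPM per kb, with a median of 35.0, and 42 of the 43 lay above the median of the 14164 genes kept (5.66). Ccnb2, the B2 partner of CDK1, stood highest at 244.5 CPM per kb (range 143.8 to 405.4), then Ube2c, the ubiquitin-conjugating enzyme of the anaphase-promoting complex, at 220.2 (134.4 to 450.7) and Mki67, which encodes the proliferation marker Ki-67, at 174.2 (102.3 to 228.3). The next were the cyclin Ccna2 at 130.7 CPM per kb (86.6 to 167.9) and the chromosomal passenger kinase Aurkb at 100.3 (67.8 to 136.7). The lowest were the large kinetochore protein gene Cenpf at 4.80 CPM per kb (2.86 to 7.98), the kinetochore subunit Nuf2 at 7.90 (5.12 to 11.3) and the checkpoint kinases Chek1 at 9.29 (6.64 to 12.3) and Chek2 at 9.84 (6.58 to 14.05). Among both the highest and the lowest of these, the ranges of neighbours in the order overlapped.

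**Figure D2:**
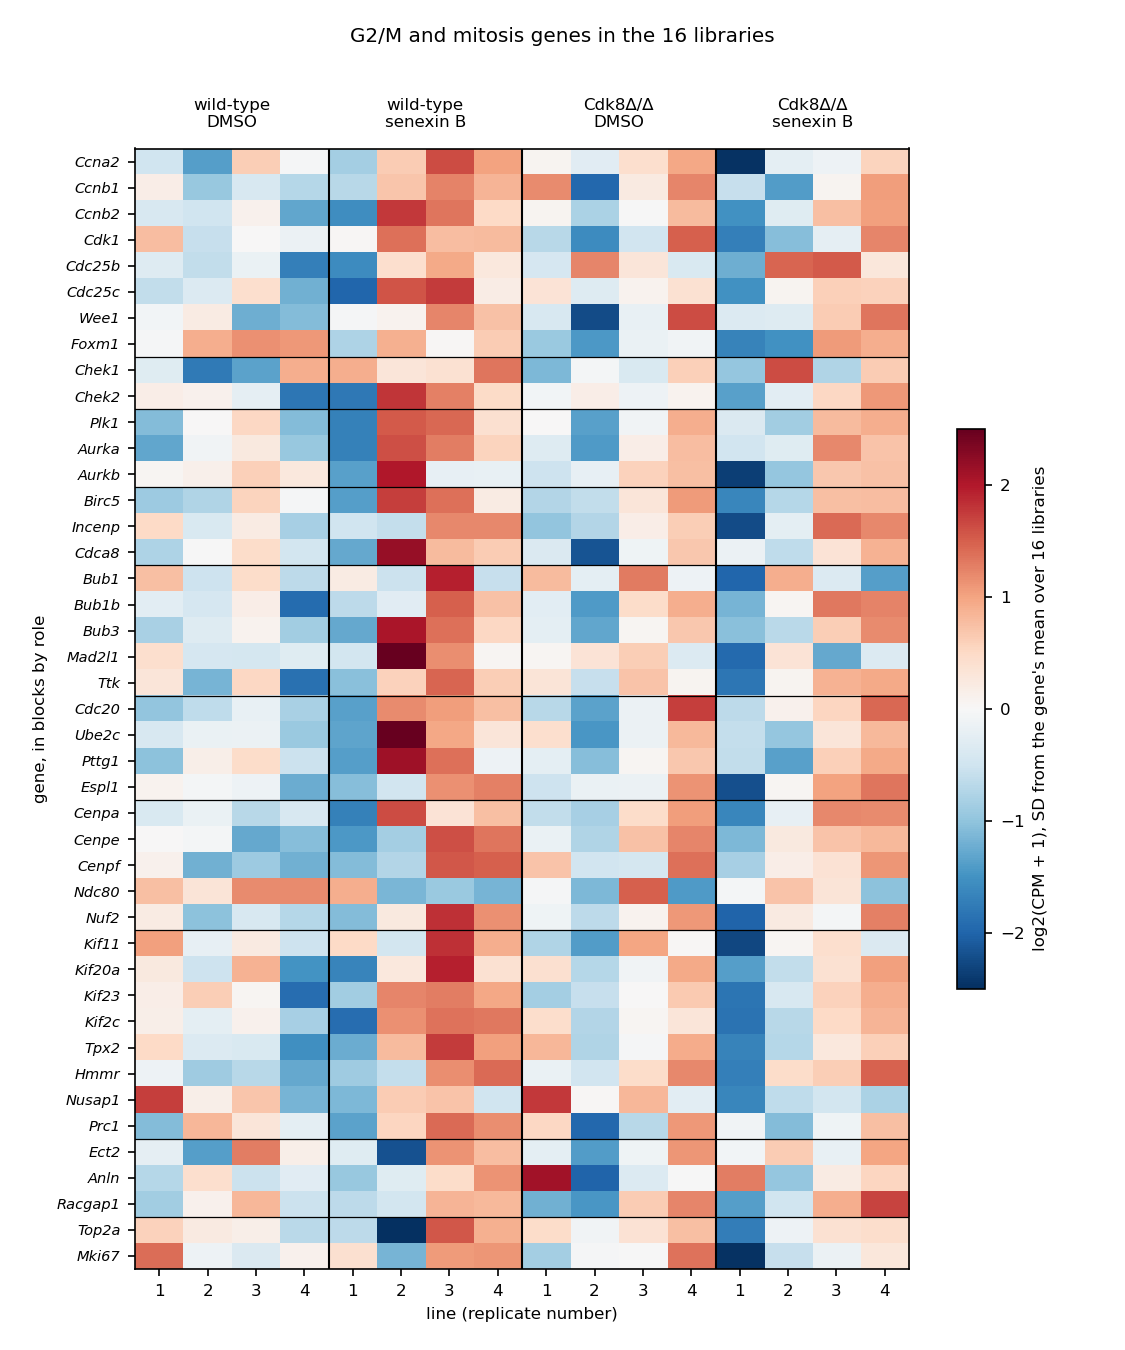
Level of each gene (rows, in blocks by role) in each library (columns, lines 1 to 4 of each group), as log2(CPM + 1) in SD from the gene's own mean over the 16 libraries. Most rows are blue in line 1 with senexin B of both genotypes and red in wild-type lines 2, 3 and 4 with senexin B, and Ndc80 runs opposite to most rows.

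Over the 16 libraries the genes varied together. The 903 pairs of members had a mean Pearson r of 0.47 for log2(CPM + 1), against 0.00051 for all pairs of the 14164 genes kept, which is a description over libraries that share lines. Each gene was also set against the mean of the other 42, and 33 genes had an r over 0.5. Ccnb2 (0.93), the microtubule depolymerase Kif2c (0.93) and Nuf2 (0.91) followed the rest most closely. Ndc80, the kinetochore subunit that pairs with NUF2, was the only gene with a negative r (-0.48), and the S-phase and DNA damage kinase Chek1 was near 0 (0.15).

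The 10 genes outside the list whose levels followed its mean most closely were also named, and 4 of them stand on the list of 121 other mitosis genes, namely Dlgap5 (r = 0.90), Ccnf (0.89), Cenpc1 (0.89) and Cdca2 (0.88). Another, Mcm7, a subunit of the replicative helicase, had an r of 0.90. The others were Nde1 (0.92), which encodes a centrosome and dynein partner, the sorting nexin Snx1 (0.91), Rbx1 (0.88), the RING subunit of cullin ubiquitin ligases, the RNA-binding protein gene Hnrnpa2b1 (0.88) and the corepressor gene Trim28 (0.88).

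The first comparison asked whether loss of CDK8 alone goes with another level of the mitotic genes. With DMSO, none of the 43 genes had a fold change over 2 at an adjusted p under 0.05 between Cdk8∆/∆ and wild-type lines by edgeR's quasi-likelihood test, where 0.00759% of the 13174 genes tested did. DESeq2 also called none of the 43, and 0.152% of all genes. Their log2 fold changes ran from -0.29 to 0.62, with 33 genes higher and 10 lower in Cdk8∆/∆ lines and a median of 0.09, against 0.0017 over all genes tested. At an unadjusted p under 0.05 there were 2 members (4.65%), where 5.32% of all genes were at that limit. The median SE of a member was 0.16 on the log2 scale. The paper's gene set enrichment analysis of the genotypes listed a G2M checkpoint set as lower in Cdk8∆/∆ lines. That set and method differ from the list and fit used here, and the difference in direction was not tested.

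Among the cyclins, CDK1 and its switches, Foxm1 (chr6:128362967-128376146, plus strand, GRCm38), the transcription factor of the wave, was at 347.3, 397.6, 411.2 and 407.7 CPM in wild-type lines and at 305.0, 283.0, 340.2 and 344.4 CPM in Cdk8∆/∆ lines. The groups did not overlap, which held for 1 of the 43 genes in the lower direction and for 1.66% of all genes. The log2 fold change of Foxm1 was -0.29 (SE 0.12, adjusted p = 0.897). Cdc25b, a phosphatase that activates CDK1, had 199.0, 176.1, 211.8 and 113.3 CPM in wild-type and 191.2, 374.8, 256.9 and 194.5 CPM in Cdk8∆/∆ lines. Its groups overlapped and its log2 fold change was 0.54 (SE 0.27, adjusted p = 0.897). Cdk1, the mitotic kinase itself, differed by less than its spread between the groups, at 259 ± 30.3 CPM (SD, n = 4) in wild-type and 248 ± 69.8 CPM in Cdk8∆/∆ lines. The phosphatase gene Cdc25c had a log2 fold change of 0.22 (SE 0.16), and the cyclin gene Ccnb1 one of 0.37 (SE 0.28).

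At the kinetochore, Cenpf (chr1:189640606-189688086, minus strand) was at 72.3, 44.4, 49.4 and 44.2 CPM in wild-type and at 90.5, 58.0, 58.9 and 115.2 CPM in Cdk8∆/∆ lines. Wild-type line 1 lay within the Cdk8∆/∆ range, and the log2 fold change was 0.62 (SE 0.27, adjusted p = 0.897). Ndc80 had a log2 fold change of -0.24 (SE 0.16), and Cenpa, the histone H3 variant of the centromere, one of 0.23 (SE 0.19). Hmmr, a spindle assembly protein gene, had the third smallest p, with 116 ± 11.1 CPM in wild-type and 142 ± 21.3 CPM in Cdk8∆/∆ lines and a log2 fold change of 0.29 (SE 0.13, adjusted p = 0.897). The mitotic kinases and their partners differed by no more than about their SE, with log2 fold changes of 0.12 for Plk1 (SE 0.22) and -0.02 for Aurkb (SE 0.11). So did the spindle assembly checkpoint gene Bub1b at 0.15 (SE 0.17), Cdc20 at 0.24 (SE 0.22), the securin gene Pttg1 at 0.06 (SE 0.25), Top2a, the topoisomerase that untangles chromosomes, at 0.08 (SE 0.12) and Mki67 at -0.03 (SE 0.19). The motor gene Kif11, which slides spindle microtubules apart, was at -0.06 (SE 0.12).

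With senexin B in both genotypes, none of the 43 genes passed, nor did any of the 13010 genes tested (0%) by edgeR, while DESeq2 called 3 genes (0.0231%), no member among them. Here 6 genes were higher and 37 lower in Cdk8∆/∆ lines, with a median log2 fold change of -0.16 (against -0.0036 over all genes) and a range from -0.44 to 0.33. No member was at an unadjusted p under 0.05, a limit that 1.55% of all genes met, and none had groups that did not overlap (0.999% of all genes did). The smallest p belonged to Mad2l1, which holds the anaphase-promoting complex inactive until chromosomes attach. It was at 179.2, 249.8, 214.3 and 189.7 CPM in wild-type and at 152.2, 195.7, 164.1 and 181.7 CPM in Cdk8∆/∆ lines, which overlapped, with a log2 fold change of -0.26 (SE 0.16, adjusted p = 1.00). Cdk1 followed with -0.32 (SE 0.21, adjusted p = 1.00) and Nusap1, a microtubule-bundling protein gene, with -0.22 (SE 0.16, adjusted p = 1.00). In the other direction the smallest p were those of Cdc25b at 0.33 (SE 0.41), Ndc80 at 0.13 (SE 0.17) and the cytokinesis gene Ect2 at 0.07 (SE 0.16). Of the remaining core genes, Ccnb1 was at -0.30 (SE 0.26), Cdc25c at -0.26 (SE 0.34), Plk1 at -0.18 (SE 0.30), Aurkb at -0.13 (SE 0.23) and Foxm1 at -0.08 (SE 0.19). Mki67 was at -0.315 (SE 0.24), and Bub1b (0.01), Cdc20 (-0.03), Cenpa (-0.06) and Top2a (-0.06) lay near 0 with an SE of 0.20 to 0.36. The largest difference was that of Pttg1, at -0.44 with an SE of 0.45, and its wild-type level was 90.1 ± 49.9 CPM (SD, n = 4).

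**Figure D3:**
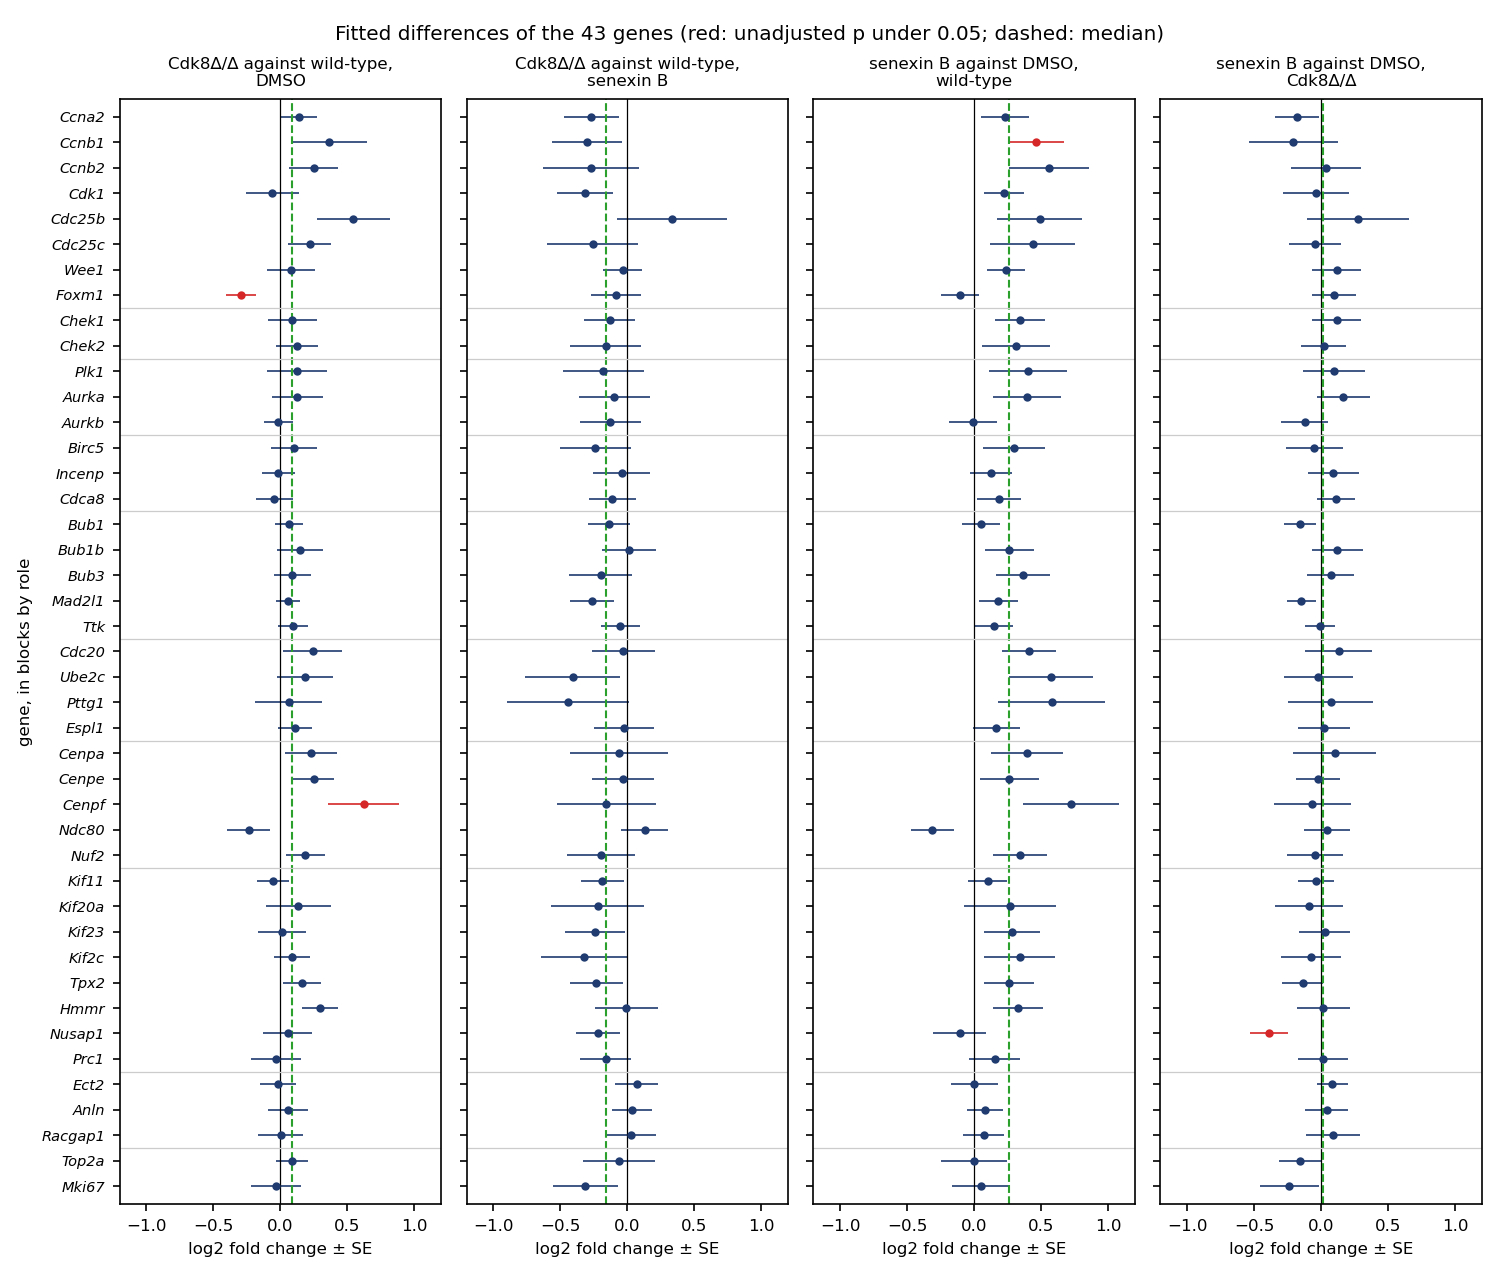
Fitted log2 fold change of each of the 43 genes (rows) with its SE in 4 comparisons (panels), where the dashed line is the median of the 43 and red marks an unadjusted p under 0.05. The medians are 0.09, -0.16, 0.26 and 0.02 from left to right, and the red points are Foxm1 and Cenpf, none, Ccnb1, and Nusap1.

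Senexin B in the wild-type lines was set against DMSO to ask what the inhibitor does where CDK8 is present. In the fit over the 4 lines 39 of the 43 genes had a positive log2 fold change, as did 52.9% of all genes tested, with a median of 0.26 against 0.02 over all genes and a range from -0.31 to 0.72. Line 1 stood apart, with 39 of the 43 genes lower with senexin B (median difference -0.22). No member passed the limits, nor did any of the 12989 genes tested (0%) by edgeR. DESeq2 called 17 genes (0.131%) and edgeR with the line as a block 45 (0.346%), no member among either. At an unadjusted p under 0.05 there was 1 member (2.33%), where 3.8% of all genes were at that limit. No member had groups that did not overlap, against 2.16% of all genes. The median of the roles was highest for the anaphase-promoting complex and separase genes (0.49) and the mitotic kinases (0.39). It was lowest for cytokinesis (0.07) and for Top2a and Mki67 (0.03). In line 2, where differences followed gene model length (below), the within-line medians of these roles were 0.86, 0.59, -0.13 and -0.53 in that order. They were 0.45, 0.36, 0.01 and 0.41 in line 3 and 0.54, 0.52, 0.24 and 0.37 in line 4. In line 1 they were -0.23, -0.24, -0.01 and -0.32. The part of gene length in the order of the roles was not tested.

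Ccnb1 (chr13:100778650-100786570, minus strand), which encodes the cyclin that starts mitosis, was at 140.5, 100.1, 118.1 and 107.6 CPM with DMSO and at 108.3, 164.7, 193.3 and 172.3 CPM with senexin B in wild-type lines 1 to 4. Lines 2, 3 and 4 were higher with senexin B and line 1 was lower, and the log2 fold change was 0.46 (SE 0.20, adjusted p = 1.00). With the line as a block it was 0.45 and no longer at an unadjusted p under 0.05, where Chek1 was then the 1 member (10.3% of all genes). Cdc20, the activator of the anaphase-promoting complex, showed the same order, with 121.0, 131.4, 146.6 and 125.8 CPM with DMSO and 110.6, 202.8, 196.0 and 183.3 CPM with senexin B, and a log2 fold change of 0.41 (SE 0.20, adjusted p = 1.00). The span of the Cdc20 gene overlaps that of Elovl1, and reads were counted without regard to strand. Whether reads of either gene entered the other's count was not tested. The same holds for other members, such as Kif20a with Cdc23 (25771 and 21396 counts over all libraries) and Ccna2 with Exosc9 (132009 and 12016). For Cenpf the same lines gave 72.3, 44.4, 49.4 and 44.2 CPM with DMSO and 46.4, 52.8, 123.2 and 120.9 CPM with senexin B. Its log2 fold change was the largest of the 43 genes at 0.72 (SE 0.36, adjusted p = 1.00).

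Ndc80 was lower, with 68.7, 64.1, 73.8 and 73.7 CPM with DMSO and 70.5, 50.6, 52.4 and 50.5 CPM with senexin B, and a log2 fold change of -0.31 (SE 0.16, adjusted p = 1.00). Here too line 1 stood apart from lines 2, 3 and 4. Foxm1 was lower with senexin B in each of the 4 wild-type lines, with differences from -0.23 to -0.0045 on the log2(CPM + 1) scale, and the fitted difference of -0.11 was smaller than its SE of 0.14. It was the only member lower in all 4 wild-type lines, where 9.12% of all genes were. Chek1 was the only member higher in all 4 (8.3% of all genes), with 40.2, 30.8, 33.3 and 49.9 CPM with DMSO and 49.9, 44.8, 45.5 and 54.0 CPM with senexin B. Its log2 fold change was 0.34 (SE 0.19, adjusted p = 1.00), and 0.36 (SE 0.15, adjusted p = 0.443) with the line as a block.

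Most of the other core genes had positive values that were larger than their SE in this fit without a block. The log2 fold change was 0.22 for Cdk1 (SE 0.15), 0.44 for Cdc25c (SE 0.32), 0.40 for Plk1, the kinase of spindle poles and mitotic entry (SE 0.29), and 0.58 for Pttg1 (SE 0.40). Cenpa had 0.39 (SE 0.27) and Bub1b 0.26 (SE 0.18). With the line as a block the values were 0.22 for Cdk1 (SE 0.17), 0.35 for Cdc25c (SE 0.23) and 0.35 for Plk1 (SE 0.18). Pttg1 then had 0.43 (SE 0.21), Cenpa 0.31 (SE 0.23) and Bub1b 0.26 (SE 0.17). Aurkb (-0.01), Top2a (0.00086) and Mki67 (0.05) showed no difference beyond an SE of 0.18 to 0.25. Nusap1 had a fitted value of -0.11 (SE 0.20) that rested on line 1, at 413.5 CPM with DMSO and 248.6 CPM with senexin B, since without line 1 it was 0.09.

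In the Cdk8∆/∆ lines senexin B was set against DMSO to see what it does where CDK8 is absent. The fit over the 4 lines had a median log2 fold change of 0.02, against 0.0070 over all genes. The range was -0.39 to 0.27, and 23 of 43 genes were higher. This median joins lines that differed in direction. Line 1 had 38 genes lower (median difference -0.29), and lines 2 and 3 had 34 and 31 higher (0.17 and 0.14). Line 4 had 23 higher (0.01). Without line 1 of each group, chosen after seeing the data, the fitted median was 0.12 with 34 genes higher. No member passed the limits, nor did any of the 13285 genes tested (0%) by edgeR or by DESeq2. With the line as a block 7 genes (0.0527%) passed, no member among them. Nusap1 (chr2:119618298-119651244, plus strand) was at 416.8, 305.8, 351.9 and 290.0 CPM with DMSO and at 226.6, 270.8, 279.5 and 263.7 CPM with senexin B in lines 1 to 4. It was lower in every line and its groups did not overlap, which held for 1 member and for 0.768% of all genes in that direction. It was also the only member at an unadjusted p under 0.05 (2.33%, where 1.83% of all genes were), with a log2 fold change of -0.39 (SE 0.14, adjusted p = 1.00). With the line as a block in edgeR it was again the 1 member at that limit, where 10.3% of all genes were. Its log2 fold change was then -0.38 (SE 0.14, adjusted p = 0.410). Without line 1 of each group, and without the block, the value was -0.22 and not at an unadjusted p under 0.05. Nusap1 overlaps Oip5, another mitotic gene, and their reads were not told apart by strand.

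Mad2l1 and Mki67 were the other members lower in all 4 Cdk8∆/∆ lines, a pattern of 10.1% of all genes. Mad2l1 had a log2 fold change of -0.15 (SE 0.11) and Mki67, at 1443, 1707, 1714 and 2277 CPM with DMSO and 1029, 1526, 1670 and 1821 CPM with senexin B, one of -0.24 (SE 0.22). Bub1, which marks kinetochores for the checkpoint, followed with -0.16 (SE 0.12). On the higher side the smallest p were those of Aurka, the spindle pole kinase, at 0.17 (SE 0.20), of Cdca8, a chromosomal passenger subunit and the only member higher in all 4 lines (8.68% of all genes), at 0.11 (SE 0.14), and of Ect2 at 0.08 (SE 0.12). Of the remaining core genes, Ccnb1 had -0.21 (SE 0.33), Cdk1 -0.04 (SE 0.24), Cdc25c -0.04 (SE 0.20), Foxm1 0.10 (SE 0.17) and Plk1 0.10 (SE 0.23). Aurkb had -0.12 (SE 0.18), Bub1b 0.12 (SE 0.19), Cdc20 0.13 (SE 0.25), Cenpa 0.10 (SE 0.31), Top2a -0.16 (SE 0.16) and Pttg1 0.07 (SE 0.32).

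**Figure D4:**
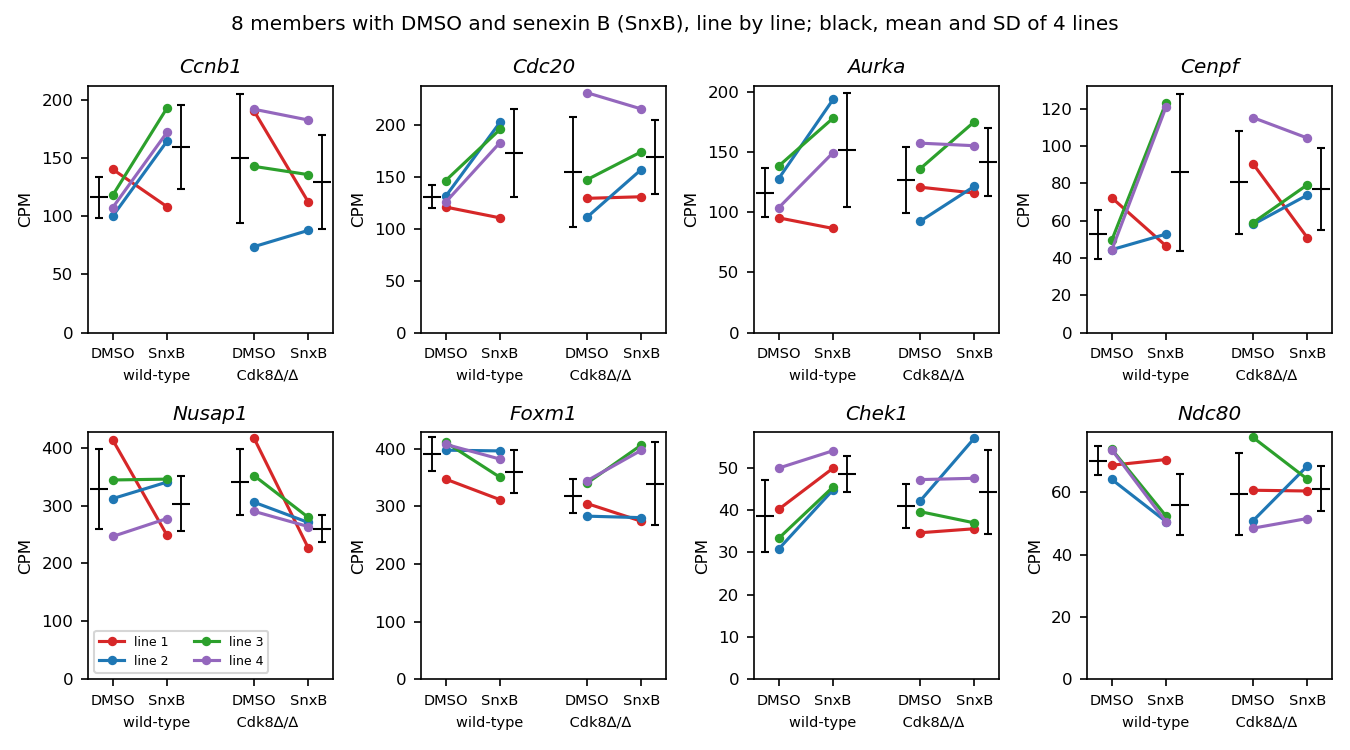
Level in CPM of 8 members in each line, joined from DMSO to senexin B (SnxB), with the wild-type lines on the left and the Cdk8∆/∆ lines on the right of each panel and the mean ± SD of 4 lines in black. For Ccnb1, Cdc20, Aurka and Cenpf the wild-type lines 2, 3 and 4 are higher with senexin B and line 1 is lower, while Nusap1 is lower in all 4 Cdk8∆/∆ lines.

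The 8 lines, each compared with itself, gave the most precise estimate of the senexin B difference. In this fit, with the line as a block, 134 of the 14164 genes tested (0.946%) passed the limits and none of the 43 did. The members had a median log2 fold change of 0.09 (against -0.0048 over all genes), 36 were higher and 7 lower, and the largest, that of Cdc25b, was 0.31. At an unadjusted p under 0.05 there were 3 members (6.98%), where 16.4% of all genes were at that limit. All 3 were higher with senexin B: Aurka (log2 fold change 0.25, SE 0.098, adjusted p = 0.213), Cdc20 (0.26, SE 0.10, adjusted p = 0.213) and Chek1 (0.23, SE 0.091, adjusted p = 0.239). Aurka was at 95.4, 128.1, 138.5 and 103.8 CPM with DMSO in the wild-type lines, and at 86.6, 193.9, 178.3 and 149.6 CPM with senexin B. In the Cdk8∆/∆ lines it was at 121.0, 92.5, 136.2 and 157.6 CPM with DMSO and at 116.1, 121.7, 175.4 and 155.4 CPM with senexin B. It was higher with senexin B in 5 of the 8 lines, Cdc20 in 6 and Chek1 in 7. On the lower side the smallest p was that of Nusap1 (-0.24, SE 0.12, adjusted p = 0.357), followed by Ndc80 (-0.14, SE 0.11) and Aurkb (-0.10, SE 0.095). The core genes not named here lay between -0.12 for Top2a and 0.22 for Pttg1. Without the block no gene passed and no member was at an unadjusted p under 0.05, where 4.86% of all genes were.

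The 8 lines differed in the direction of these genes. The median difference of the 43 genes, senexin B minus DMSO on the log2(CPM + 1) scale, was -0.22 in wild-type line 1, with 39 of the 43 genes lower. In wild-type lines 2, 3 and 4 it was 0.34, 0.37 and 0.43, with 29, 39 and 40 genes higher. In Cdk8∆/∆ line 1 it was -0.29, with 38 genes lower, and in Cdk8∆/∆ lines 2, 3 and 4 it was 0.17, 0.14 and 0.01, with 34, 31 and 23 genes higher. The median of all 14164 genes lay between -0.02 and 0.01 in the 8 lines. Line 1 of both genotypes was thus opposite in sign to wild-type lines 2, 3 and 4 and to Cdk8∆/∆ lines 2 and 3. Cdk8∆/∆ line 4 had no clear direction, with 53.5% of the members higher against 50.1% of all genes. The labels do not say whether lines with the same number were handled together.

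Gene by gene, 36 of the 43 members (83.7%) were lower with senexin B in line 1 of both genotypes, where 37.8% of all genes were. In the wild-type lines, 27 members (62.8%) were lower in line 1 and higher in lines 2, 3 and 4, where 12.9% of all genes were, and 12 members (27.9% against 2.79%) had that pattern in both genotypes. These 12 were Ccnb2, Cdc25b, Cdc25c, Bub1b, Bub3, Ttk, Ube2c, Cenpa, Kif20a, Kif23, Kif2c and Hmmr. The patterns were chosen after the lines were seen and the genes are correlated, so the shares are a description. No member was higher in all 8 lines (1.96% of all genes) or lower in all 8 (2.59%). By role, the medians in line 1 were most negative for kinetochore genes in wild-type (-0.40) and for the cyclins, CDK1 and its switches (-0.53), the spindle motors and microtubule proteins (-0.51) and the Top2a and Mki67 pair (-0.55) in Cdk8∆/∆ cells. Cytokinesis genes hardly differed in line 1, with -0.01 and -0.04.

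**Figure D5:**
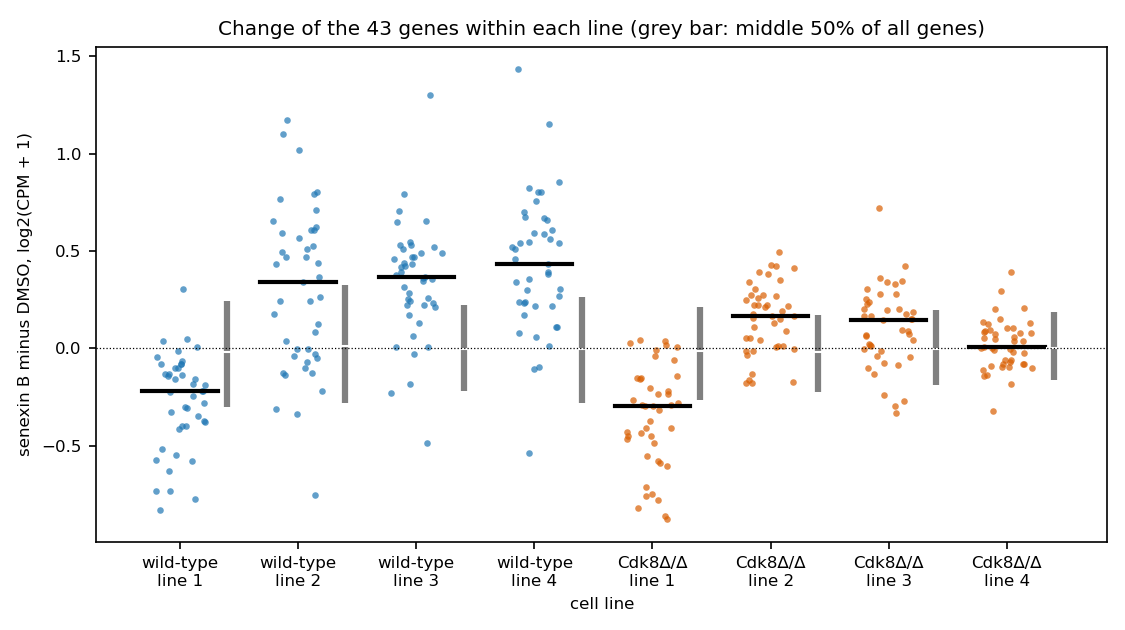
Difference of each of the 43 genes (points) within each line, senexin B minus DMSO on the log2(CPM + 1) scale, with the median of the 43 as a black bar and the middle 50% of all 14164 genes as a grey bar beside it. The black bar is below 0 in line 1 of both genotypes (-0.22 and -0.29) and highest in wild-type line 4 (0.43).

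Leaving out line 1 shows how much rests on it. Without number 1 in every group, an alternative chosen after seeing the data, the senexin B fit over the remaining 6 lines had a median member log2 fold change of 0.23 with 37 genes higher, and 21 members were at an unadjusted p under 0.05 (23.5% of all genes), where the full fit had 3. Of these, 4 were at an adjusted p under 0.05 (7.5% of all genes): Cdc25b (0.61, adjusted p = 0.0131), Ccnb2 (0.51, adjusted p = 0.031), Aurka (0.37, adjusted p = 0.0385) and Cenpa (0.40, adjusted p = 0.0404). None had a fold change over 2, and over all alternatives the adjusted p of Aurka ran from 0.0385 to 1.00. Without number 2, 3 or 4 in every group there were 0, 1 and 4 members at an unadjusted p under 0.05 (13.4%, 11.5% and 12.4% of all genes) and none at an adjusted p under 0.05. In the wild-type lines alone, 17 members were at an unadjusted p under 0.05 without line 1 (8.85% of all genes), 16 of them higher and Ndc80 lower, and none at an adjusted p under 0.05. Since the line was left out because of the values of these genes in it, the values without it are no separate evidence.

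Wild-type line 2 stood apart in another way. With senexin B it was the highest library for Ube2c (1172 CPM, against 519.5 with DMSO), Pttg1 (149.1 against 69.1) and Mad2l1 (249.8 against 180.1) and the lowest for Top2a (383.7 against 647.5). The exon models of Ube2c (2.6 kb) and Pttg1 (2 kb) are short and that of Top2a (9.01 kb) is long, but that of Mad2l1 is also long (8.39 kb), in a list that spans 1.53 to 15.4 kb. Across the 43 genes the difference in this line had a Spearman correlation of -0.54 with model length, and across all 14164 genes one of -0.38, while in the other 7 lines the value for all genes lay between -0.01 and 0.11. The 21 genes shorter than the median of 4.635 kb had a median difference of 0.51 in this line and the 21 longer ones 0.08. The part of this length relation in the results above was not tested, and without number 2 in every group the wild-type median was 0.24.

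The last comparison asked whether the senexin B difference itself differs between the genotypes. The edgeR fit had no block for the line, so variation between lines stayed in its SE. No member and no gene passed by edgeR or by DESeq2 (0% of 14164). No member was at an unadjusted p under 0.05, and 0.473% of all genes were. With the line as a block in edgeR, again no gene passed. No member was then at an unadjusted p under 0.05, where 3.24% of all genes were. The members' median was -0.25 with the block, and 39 of the 43 were lower in Cdk8∆/∆ lines. Without the block, the difference was lower in Cdk8∆/∆ lines for 39 of the 43 genes. Its median was -0.27 against -0.0023 over all genes, and the median SE of a member was 0.28. The smallest p were those of Mad2l1 (-0.32, SE 0.17, adjusted p = 1.00), Ccna2 (-0.40, SE 0.24, adjusted p = 1.00) and Tpx2, an activator of Aurora A on the spindle (-0.39, SE 0.23, adjusted p = 1.00). Ndc80 led the other direction with 0.37 (SE 0.23, adjusted p = 1.00), followed by Foxm1 at 0.21 (SE 0.21) and Ect2 at 0.09 (SE 0.20). Ccnb1 had a value of -0.66 (SE 0.40, adjusted p = 1.00), and the other core genes lay between -0.50 for Pttg1 (SE 0.55) and -0.11 for Aurkb (SE 0.25). The 6 comparisons share groups, so the DMSO wild-type libraries enter both the genotype and the senexin B values, and their directions are not separate evidence.

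Other genes of the cycle were set beside the members. Of 121 other mitosis genes, 86 were higher with senexin B in the wild-type lines (median log2 fold change 0.11) and 7 were at an unadjusted p under 0.05 (5.79%, where 3.8% of all genes were). The smallest p were those of the kinesins Kif24 (0.71, SE 0.20) and Kif18a (0.45, SE 0.17) and of Sapcd2 (0.84, SE 0.25). Of 49 E2F and DNA replication genes, 39 were higher (median 0.16), with Mcm3 (0.39, SE 0.17) and Mcm6 (0.45, SE 0.20), subunits of the replicative helicase, at an unadjusted p under 0.05. In the Cdk8∆/∆ lines the medians of both lists were near 0 (0.02 and -0.01), and the smallest p were those of Anapc13 (-0.42, SE 0.14), a subunit of the anaphase-promoting complex, and Ccne2 (-0.50, SE 0.18).

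Ccne2, the cyclin E2 gene, acts at the entry to S phase. Over the 8 lines it was the only gene of the 3 lists at an adjusted p under 0.05 by edgeR (2.63% of all genes). DESeq2 put Reep4, Pold1 and Prim2 under that limit as well, where 5.39% of all genes were. Ccne2 was at 55.8 ± 11.8 CPM with DMSO and 38.7 ± 8.90 CPM with senexin B in wild-type lines (SD, n = 4), and at 50.5 ± 12.3 and 35.7 ± 3.36 CPM in Cdk8∆/∆ lines. Its log2 fold change was -0.50 (SE 0.10, adjusted p = 0.025), which is under the fold change limit. In line 1 the 121 other mitosis genes had medians of -0.04 in wild-type and -0.16 in Cdk8∆/∆ cells and the E2F and DNA replication genes of 0.04 and -0.20. In wild-type line 1 the members' median of -0.22 was thus below that of both other lists.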

How the data were processed

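RNA of 16 libraries (4 wild-type and 4 Cdk8∆/∆ lines, each with DMSO and senexin B) was made with a SENSE mRNA kit and read as 50 bp single ends. The authors trimmed reads with Trimmomatic, aligned them with STAR and deposited raw read counts per gene from featureCounts 1.5.1, over exons of GENCODE M13 models and with no strand option, so that reads of overlapping genes on opposite strands could not be told apart. Depth was 13145876 to 18349425 counts per library. No column of per-sample values was left unused (0).

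Counts were tested with edgeR 4.0.16 in R 4.3.3 (TMM, filterByExpr, robust quasi-likelihood test, Benjamini-Hochberg adjustment over all genes tested). The SE is the log2 fold change divided by the root of F. Genotypes were compared with 4 lines against 4, and senexin B with DMSO within each genotype, both without a block. Senexin B over the 8 lines had the line as a block, and the interaction had none. A gene was called with a fold change over 2 at an adjusted p under 0.05, and genes at an unadjusted p under 0.05 were counted too. CPM are TMM-scaled, and within-line differences use log2(CPM + 1). The fits were tested on simulated data. Same-numbered DMSO and senexin B libraries are the same line and deviated together (r of 0.56 to 0.78 in wild-type and 0.77 to 0.87 in Cdk8∆/∆ lines), while across genotypes same-numbered libraries had an r of -0.21 to 0.43 and were not treated as pairs.

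All members could be named. Values are given for Cdk8, for the core genes (Ccnb1, Cdk1, Cdc25c, Foxm1, Plk1, Aurkb, Bub1b, Cdc20, Cenpa, Top2a, Mki67 and Pttg1), and in each comparison for members at an unadjusted p under 0.05 and the 3 with the smallest p of each direction. From the 2 other lists, genes are named from the 3 with the smallest p. The members and lists were chosen with earlier results of these data known. Alternatives were DESeq2 1.42.0, RLE size factors, other count filters, all 16 libraries in one fit, the block, the fold change limit and each library left out. A planned search of protein sequences for destruction motifs was not run.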

Additional observations from a re-analysis of the deposited data

Results flagged for a closer look

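In 6 of 172 sets of 4 lines (43 genes in 4 groups), 1 line lay far from the other 3 by Dixon's test. Chance alone flags about 5% of sets, which is more than were flagged here, so the flags are only a description. Of the 6, 4 were line 1 of the wild-type lines with senexin B, in genes that are correlated. There Cdc20, the activator of the anaphase-promoting complex, was at 110.6 CPM against 183 to 203 CPM in the other lines, and Kif23, a motor of the central spindle, at 132.002 CPM against 194 to 206 CPM. Kif2c, which shortens microtubules, was at 46.5 CPM against 103 to 110 CPM. Ndc80, the microtubule-binding kinetochore subunit, was the one of these above the others, at 70.5 CPM against 50.5 to 52.4 CPM. With DMSO, Mad2l1 in wild-type line 1 was at 197 CPM against 179.8 to 182 CPM, and Espl1, the gene for separase, in wild-type line 4 was at 89.7 CPM against 108 to 113 CPM.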

How the results depend on the processing

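Under the alternatives 551 values of the members with the 3 smallest p in each direction of each comparison kept their direction and their side of the threshold, 6 changed sign and 1 passed the threshold (Aurka over the 8 lines without number 1, where Cdc25b, Ccnb2 and Cenpa, not in this tally, passed too), while 316 counts and medians stayed close and 62 moved. The cause of the changes was not tested. The number of genes called with DMSO, 1, became 20 with DESeq2, 0 with a minimum of 10 counts, 0 with the replicate block and 0 without any 1 library. With senexin B in both genotypes it was 0, and 3 with DESeq2, 1 with no filter and 1 with all 16 libraries in one fit. For senexin B in wild-type lines it was 0, and 17 with DESeq2, 3 with no filter and 45 with the block, and in Cdk8∆/∆ lines 0, and 7 with the block. Over the 8 lines it was 134, and 40 with a minimum of 10 counts, 0 with no replicate block, 373 with no fold change limit, 80 to 178 without 1 line (80 without wild-type line 3 and 88 without wild-type line 4), and 361, 50, 34 and 55 without number 1, 2, 3 and 4 in every group.

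Members at an unadjusted p under 0.05 with DMSO numbered 2, and 0 with all 16 libraries in one fit, 1 with the block and 0 to 3 without 1 library, with 0 without wild-type line 2 or 4 or Cdk8∆/∆ line 1 and 1 without wild-type line 3 or Cdk8∆/∆ line 4. With senexin B in both genotypes they numbered 0, and 1 with all 16 libraries in one fit and 0 to 1 without 1 library, the 1 being without Cdk8∆/∆ line 4. For senexin B in wild-type lines they numbered 1, and 0 with RLE size factors, with no filter and with all 16 libraries in one fit. Without 1 library they numbered 0 to 19, with 19 without the senexin B library of line 1. They numbered 0 without the DMSO library of line 2 or 3 or the senexin B library of line 3 or 4. Without number 1, 2, 3 and 4 they numbered 17, 0, 0 and 0. The share of all genes was then 8.85%, 2.16%, 1.75% and 1.79%, and 3.8% in the full fit. In Cdk8∆/∆ lines they numbered 1, and 0 to 1 without 1 library, with 0 without either library of line 1 or the DMSO library of line 3, and 0 without number 1 or 3. Over the 8 lines they numbered 3, and 5 with no filter, 0 with no replicate block and 0 to 9 without 1 line, with 5 without wild-type line 1, 9 without Cdk8∆/∆ line 1 and 0 without Cdk8∆/∆ line 2. Without number 1, 2 and 3 they numbered 21, 0 and 1 (23.5%, 13.4% and 11.5% of all genes, and 16.4% in the full fit). Without number 1 there were 4 at an adjusted p under 0.05 (7.5% of all genes). The share of all genes moves with the setting and is not given for each, so these counts alone do not set the members apart.

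With the line as a block the 1 member at an unadjusted p under 0.05 in wild-type lines was Chek1 in place of Ccnb1, and between genotypes with DMSO Foxm1 was lost. The replicate block moved no member past an adjusted p under 0.05. Leaving out number by number was chosen after seeing the data. The log2 fold change of Ect2 changed sign to -0.032 between genotypes with senexin B without wild-type line 2 (up to 0.15 without wild-type line 3), and without number 2 in every group to -0.047 there, to -0.0010 in Cdk8∆/∆ lines and to -0.024 in the interaction. Nusap1 in wild-type lines changed sign to 0.011 without the DMSO library of line 1 and to 0.093 without number 1, and was -0.23 without the DMSO library of line 4.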

Other observations

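Sapcd2 and Kif24, which stand on the list of other mitosis genes, had the smallest p of that list for senexin B in wild-type lines. Sapcd2, which acts in spindle orientation, was at 25.8 ± 5.57 CPM with DMSO and 45.9 ± 13.2 CPM with senexin B in the wild-type lines, and at 38.3 ± 10.4 and 48.4 ± 22.8 CPM in the Cdk8∆/∆ lines (SD, n = 4). Kif24 was at 39.4 ± 5.35 and 63.8 ± 14.1 CPM in the wild-type lines and at 45.6 ± 9.88 and 52.4 ± 13.4 CPM in the Cdk8∆/∆ lines. Over the 8 lines Reep4, which keeps the endoplasmic reticulum off mitotic chromosomes, had the smallest p of the list, with a log2 fold change of 0.30 (SE 0.077, adjusted p = 0.0632 by edgeR and 0.0101 by DESeq2).

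Among the E2F and DNA replication genes the DNA polymerase delta subunit Pold1 was higher with senexin B by 0.35 on the log2 scale over the 8 lines (SE 0.093, adjusted p = 0.0809 by edgeR and 0.0221 by DESeq2), and the primase subunit Prim2 by 0.47 (SE 0.13, adjusted p = 0.0927 by edgeR and 0.0223 by DESeq2). The CHR element was in the promoter window of 48.5% of 101 other mitosis genes and 25.6% of 39 E2F and DNA replication genes.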
